A study of Mus musculus with 4 samples.

Results

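Stress-high basal cells are the basal mammary epithelial cells with the highest summed level of 5 stress genes, Hmox1, Gclm, Cryab, Hspb8 and Hsph1. A cell with at least 1000 UMIs (unique molecular identifiers, counted transcripts) was called basal when its UMIs of Krt5, Krt14, Krt17 and Acta2 summed to at least 5 and to more than 3 times its UMIs of the luminal keratins Krt8, Krt18 and Krt19. Of 18223 deposited cells, 7028 were basal, and the 5% of them with the most UMIs of the 5 genes per 10000 UMIs were taken, which gave 351 cells. The members were therefore chosen on measured values, and the levels of the 5 genes in them are a description with no test. The remaining 6677 basal cells are the comparison class.

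The cells came from the fourth mammary glands of FVB mice at 9 weeks of age. All 4 mice carried floxed alleles of Tfap2c (Tfap2c fl/fl), which encodes the transcription factor AP-2γ, together with Krt5-CreERT2, a Cre recombinase driven by the basal keratin promoter Krt5 and switched on by tamoxifen compounds. From 4 weeks of age 2 mice received corn oil and 2 received 4OHT, the active tamoxifen metabolite, daily (5 days in the sample annotation, a week in the treatment description), and each mouse gave 1 library of 3′ droplet single-cell RNA counts. The study was set up to see how mammary stem cells fare when Tfap2c is deleted. Cells of 1 library share a mouse, so every test below compares sums over libraries and not cells.

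The libraries held 3546 to 5545 cells and 17351950 to 22017878 UMIs each. The 4 libraries shared 155 cell barcodes, which 5 stress-high cells carried, and no barcode was stress-high in more than 1 library. In all basal cells Tfap2c itself stood at 389 and 285 counts per 1000000 UMIs (CPM) under the corn oil label and at 285 and 325 CPM under the 4OHT label. It was thus not lower throughout in the 4OHT-labelled basal cells (edgeR log2 difference -0.08, adjusted p = 0.999). Counting at the 3′ end can still score a transcript that has lost an internal exon, so this value does not check the recombination, and the treatment groups are named by their labels.

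The 5 genes come from 2 cellular defence systems. When oxidants or electrophiles modify the sensor KEAP1, the transcription factor NRF2 escapes degradation and switches on genes for heme breakdown, iron storage, glutathione and thioredoxin recycling and the supply of NADPH. When unfolded proteins occupy cytosolic chaperones, the transcription factor HSF1 is released and raises the heat shock proteins. Basal mammary cells are contractile myoepithelial cells that eject milk and border the gland, and they share the keratins Krt5 and Krt14 with stem and progenitor cells of the tissue.

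Hmox1 encodes heme oxygenase 1, which degrades heme to biliverdin, iron and carbon monoxide, and it lies at chr8:75093621-75100589 on the plus strand (GRCm38, GENCODE M21). Gclm, the modifier subunit of the first enzyme of glutathione synthesis, lies at chr3:122245557-122270732 on the plus strand. Cryab, at chr9:50751325-50756636 on the plus strand, encodes αB-crystallin, a small heat shock protein that holds unfolded proteins in solution. Hspb8, at chr5:116408491-116422864 on the minus strand, encodes a further small heat shock protein, which works with BAG3 in chaperone-assisted autophagy. Hsph1, at chr5:149614287-149636376 on the minus strand, encodes HSP110, the exchange factor that resets HSP70.

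NRF2 reads the antioxidant response element and HSF1 the heat shock element, and both can be looked for in the 250 bases before each gene's start. The letters TGACNNNGC were searched on both strands for the former, and GAANNTTC and TTCNNGAA, each its own reverse complement, for the latter. The letters TGACTCA of AP-1 sites fit inside the first motif, so a match that holds them does not tell the readers apart. Of the matches printed below only that of Prdx1 holds them, on the opposite strand. The sequences below are shown because these genes carry a match before their start and rise together in the results. They are RefSeq windows (GRCm38.p6) that hold the match and 40 bases on either side, 5′ to 3′ on the gene's strand, with the match in capitals. Gclm lies at chr3:122245383-122245471, Txnrd1 (thioredoxin reductase 1) at chr10:82859074-82859162 before a start inside the annotated gene, and Prdx1 (peroxiredoxin 1) at chr4:116685426-116685514, each with an antioxidant response element.
Gclm: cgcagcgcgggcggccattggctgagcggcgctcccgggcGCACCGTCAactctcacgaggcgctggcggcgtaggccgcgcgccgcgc
Txnrd1: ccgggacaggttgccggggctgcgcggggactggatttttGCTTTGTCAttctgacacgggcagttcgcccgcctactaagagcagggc
Prdx1: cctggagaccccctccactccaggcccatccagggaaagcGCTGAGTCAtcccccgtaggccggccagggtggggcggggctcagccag

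Hspa1b (inducible HSP70) at chr17:34959295-34959382 on the minus strand and Hspb1 (HSP27) at chr5:135887762-135887869 on the plus strand carry heat shock elements.
Hspa1b: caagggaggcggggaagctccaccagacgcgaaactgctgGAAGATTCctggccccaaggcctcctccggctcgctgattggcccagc
Hspb1: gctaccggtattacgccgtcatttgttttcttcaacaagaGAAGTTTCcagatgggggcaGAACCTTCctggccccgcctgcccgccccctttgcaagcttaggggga

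Among the heat shock chaperone genes that were rule genes or passed the test described below, 9 of the 18 found in the RefSeq table held a heat shock element in this window, against 14.5% of all 27025 genes of the table. Among the proteasome genes it was 1 of 19, and among the chaperones of the endoplasmic reticulum 0 of 14. The antioxidant element was found in 4 of 21 NRF2 target genes, against 11.5% of all genes, and in 3 of 14 chaperones of the endoplasmic reticulum. Hspa1a and Hspa1b have the same letters in their windows, and Hspd1 and Hspe1, which are transcribed away from each other, share 1 window with 3 overlapping elements. A match is a string of letters and not a measured binding site, and its absence says nothing of sites elsewhere. Hmox1 and Cryab had no entry in the table.

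Hmox1 dominated the score. It supplied 72.0% of all rule gene UMIs in the 351 cells and was the highest of the 5 genes in 315 of them. Cryab supplied 14.2% and led in 32 cells, Gclm supplied 9.19%, Hsph1 2.69% and Hspb8 1.89%. A median stress-high cell held 52 UMIs of the 5 genes, and the lowest held 15. All 5 genes were detected in 76 cells, 4 in 108, 3 in 101, 2 in 59 and 1 in 7. The class is therefore mainly made of cells with high Hmox1, with a smaller set of cells high in Cryab.

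The limit is a quantile of the score, so cells on both sides of it score alike by construction. The lowest member stood at 79.9 UMIs of the 5 genes per 10000 and the highest non-member at 79.7, while the median member stood at 126 and the highest at 518. The 10 cells just inside averaged 81.4 and the 10 just outside 79.0. The median of all other basal cells was 4.15, and 30.4% of them had no UMI of the 5 genes. The class is a range of a score, and whether it holds a separate population was not tested.

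Summed per library, Hmox1 stood in stress-high cells at 10312 and 11137 CPM under the corn oil label and at 8808 and 10222 CPM under the 4OHT label, against 891, 723, 499 and 335 CPM in the other basal cells. Gclm stood at 1200, 1505, 1070 and 1349 CPM against 237, 239, 135 and 113 CPM, with the libraries in the same order. Both were high in all 4 libraries, with little spread among the stress-high sums. The common score limit, met mainly through Hmox1, favours this by construction. Cryab was uneven, at 1743 and 708 CPM in the stress-high cells under the corn oil label and at 4030 and 3302 CPM under the 4OHT label, against 131, 104, 123 and 114 CPM elsewhere. Of its UMIs in the class, 44.8% came from 10 cells. Within each library the 10 highest cells held 84.5% and 55.9% of them under the corn oil label and 83.4% and 78.2% under the 4OHT label. Hspb8 stood at 227, 308, 234 and 294 CPM against 78.4, 83.8, 84.4 and 83.2 CPM, and Hsph1 at 309, 305, 686 and 396 CPM against 121, 54.8, 112 and 43.7 CPM.

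**Figure D1:**
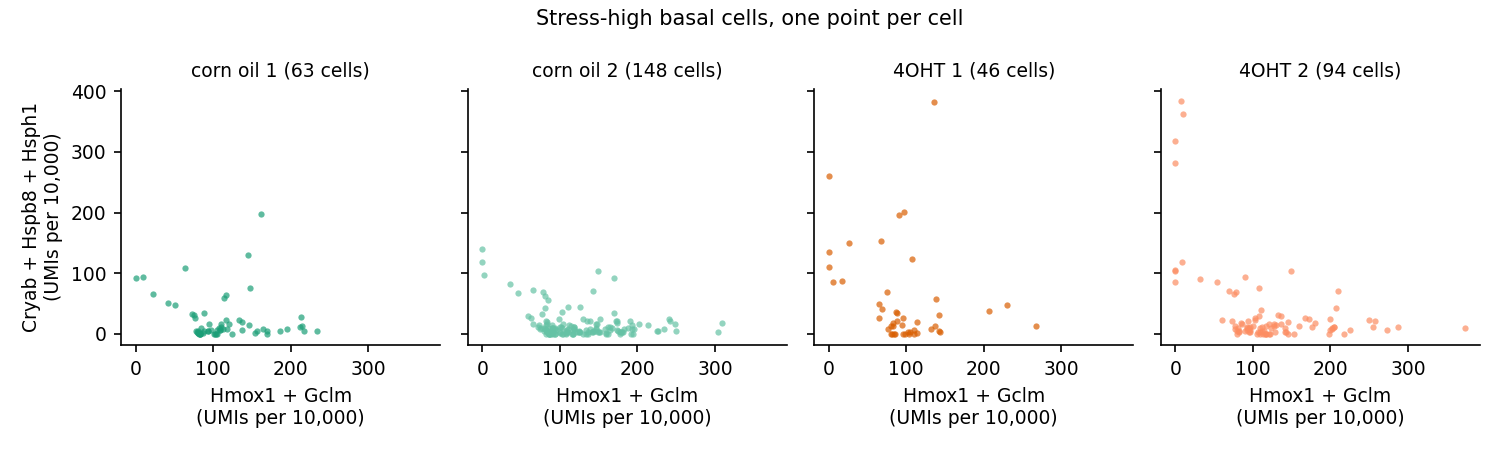
Each point is a stress-high basal cell, drawn by library, with Hmox1 plus Gclm on the x axis and Cryab plus Hspb8 plus Hsph1 on the y axis, both in UMIs per 10000 UMIs of the cell. Most of the 63, 148, 46 and 94 cells lie along the x axis, and a few cells reach high values on the y axis with little Hmox1 and Gclm.

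Across all basal cells of a library, Hmox1 and Gclm went together, with a Spearman rho of 0.40 to 0.54 over 1421 to 2178 cells. Hmox1 and Cryab had a rho of 0.06 to 0.16, and Hmox1 and Hsph1 of -0.04 to 0.14. Cryab and Hsph1 had a rho of 0.15 to 0.25. These are descriptions over cells that share a library and differ in depth, in sparse counts.

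Whether each gene marks the same cells can be read only where the gene did not choose them. The 5 genes were themselves chosen with earlier results of these data known. The tests below are therefore not independent evidence that the genes go together. The top 5% of basal cells was therefore chosen again on 4 of the 5 genes, and the gene left out was tested with edgeR's quasi-likelihood test on sums per library, adjusted over all genes tested. Of all genes, 12.3%, 13.9%, 15.4%, 15% and 15.8% passed in the 5 fits that left out Hmox1, Gclm, Cryab, Hspb8 and Hsph1. Every left-out gene was higher in the chosen cells in 4 of 4 libraries. Hmox1 was 7.29-fold higher in cells chosen on the other genes (log2 fold change 2.87 ± 0.14 SE, edgeR adjusted p = 1.94e-15), although only 199 of those cells were stress-high. Its sums stood at 4996, 8104, 5127 and 6550 CPM in the chosen cells and at 1136, 1139, 603 and 521 CPM in the rest, with no overlap.

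Gclm was 6.0-fold higher when left out (log2 2.59 ± 0.13 SE, edgeR adjusted p = 2.04e-14), and Cryab 5.88-fold (log2 2.56 ± 0.20 SE, edgeR adjusted p = 8.55e-12). The Cryab sums again spread widely, at 995, 488, 2929 and 889 CPM in the chosen cells against 163, 123, 178 and 229 CPM in the rest. Hsph1 was 4.23-fold higher (log2 2.08 ± 0.18 SE, edgeR adjusted p = 2.56e-10) and Hspb8 3.02-fold (log2 1.59 ± 0.14 SE, edgeR adjusted p = 3.03e-09). For these 4 genes 323 to 348 of the chosen cells were stress-high, since Hmox1 still ruled the score.

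**Figure D2:**
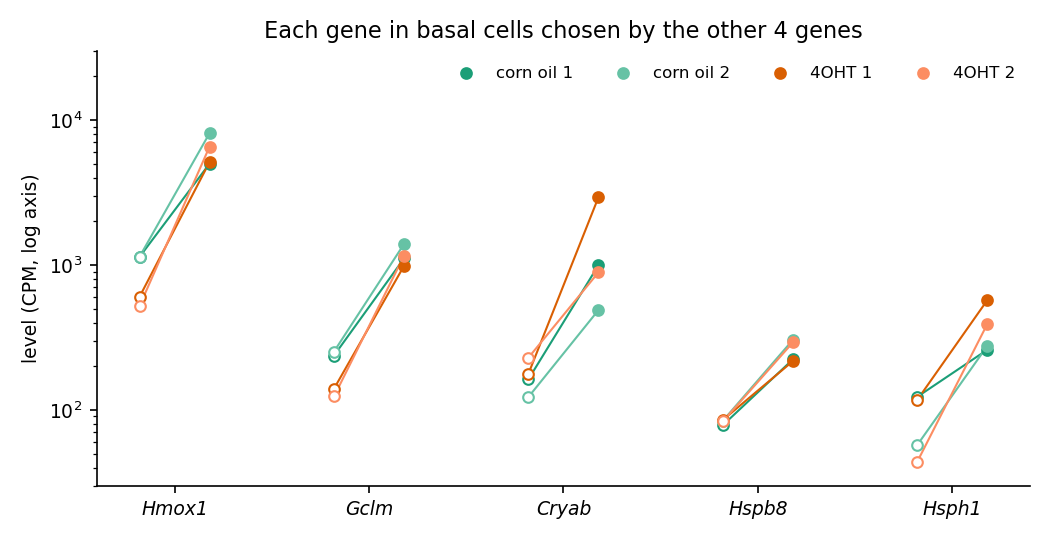
Level of each rule gene in CPM on a log axis, in basal cells chosen by the other 4 genes (filled points) and in the remaining basal cells (open points), with 1 line per library. Each line rises from left to right in all 4 libraries, and the Cryab lines are the most spread, from 488 to 2929 CPM in the chosen cells.

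The oxidative and the heat genes were also used apart, with the same limit from how the 5 genes were chosen. The top 5% of basal cells by Hmox1 and Gclm and the top 5% by Cryab, Hspb8 and Hsph1, 351 cells each, shared 99 cells, which is 28.2% of either set, while each set is 4.99% of all basal cells. Of the stress-high cells, 315 were in the Hmox1 and Gclm set, 135 were in the heat set, and 0 were in neither. In the Hmox1 and Gclm set, the genes that did not choose it were higher, with Cryab at log2 2.45 ± 0.22 SE (edgeR adjusted p = 8.65e-09), Hsph1 at 1.66 ± 0.18 SE (adjusted p = 1.59e-07) and Hspb8 at 1.38 ± 0.15 SE (adjusted p = 1.08e-07). In the heat set Hmox1 was higher by log2 2.20 ± 0.12 SE (edgeR adjusted p = 7.71e-17) and Gclm by 1.19 ± 0.13 SE (adjusted p = 3.19e-09).

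Each set was also compared with the remaining basal cells over all genes. In the Hmox1 and Gclm set 5.25% of 9180 genes tested outside the rule were higher and 8.36% lower (13.6% in either direction). In the heat set 2.87% of 9062 were higher and 4.65% lower (7.51% in either direction). Of the NRF2 targets tested, 26 of 31 rose in the Hmox1 and Gclm set (median log2 1.30) and 11 of 30 in the heat set (median 0.33). Of 27 heat shock chaperones, 20 rose and 1 fell in the former (median 0.75), and 21 rose and 1 fell in the latter (median 1.40). Proteasome subunits rose in 24 of 31 cases in the former and in 5 of 31 in the latter. These counts come from separate fits that share cells, and the difference between the sets was not tested.

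Immediate early genes, the first transcripts of an activated cell, fell in 14 and rose in 1 of 24 cases in the Hmox1 and Gclm set (median -0.74), and rose in 6 and fell in 1 of 24 in the heat set (median 0.31). Interferon response genes rose in 5 and fell in 0 of 17 cases in the former (median 0.61), and fell in 5 and rose in 0 of 17 in the latter (median -1.18). Contractile genes fell in 10 of 14 cases in the former and in 2 of 14 in the latter. Chaperones of the endoplasmic reticulum fell in both, in 11 of 17 cases (median -0.53) and in 17 of 17 (median -1.37).

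The comparison of the 351 stress-high cells with all other basal cells asks what these cells carry beyond the 5 genes. Of 9171 genes tested outside the rule, 580 (6.32%) were higher and 820 (8.94%) lower at an edgeR adjusted p under 0.05, which is 15.3% in either direction, with a median log2 fold change of -0.04 over all of them. Cells were summed per library and class, with the library as a block. The stress-high cells were deeper, with median UMIs of 5994, 3573, 5029 and 2996 per cell against 5111, 3125, 3824 and 2818 in the other basal cells. Against 1 other basal cell each, the nearest in total UMIs in the same library, 233 genes were higher and 361 lower of 3375 tested, fewer genes passing the filter on low counts in the smaller sums. Without the second corn oil-labelled library 310 genes were higher and 544 lower.

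NRF2 target genes rose together. Of 33 listed outside the rule 30 passed the filter on low counts, and 26 rose, none fell, with a median log2 fold change of 1.27. Slc7a11, the cystine importer that feeds glutathione synthesis, stood at 59.2, 76.2, 75.2 and 133 CPM against 16.5, 12.3, 12.1 and 10.6 CPM (log2 2.63 ± 0.24 SE, edgeR adjusted p = 1.31e-08). The stress-high sums lay above all sums of the other basal cells. Gclc, the catalytic partner of Gclm, rose by log2 2.06. Txnrd1, which recharges thioredoxin, stood at 448, 297, 368 and 239 CPM against 126, 65.0, 73.4 and 30.3 CPM (log2 2.23 ± 0.15 SE, edgeR adjusted p = 1.21e-10). Osgin1, an NRF2-induced growth inhibitor, rose by log2 2.55 and Prdx1, which removes peroxides, by 1.5.

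Pgd and Taldo1, enzymes of the pentose phosphate pathway, rose by log2 1.85 and 1.72, while G6pdx, the first enzyme of that pathway, did not pass (0.62). Cbr3, a carbonyl reductase, rose by 1.78. Nqo1, a classical NRF2 reporter, rose by 1.01 at low levels of 12.5 to 53.9 CPM against 9.30 to 23.0 CPM. Blvra (0.04), Cbr1 (0.19) and Ugdh (-0.58) did not pass. Gstp1, a glutathione transferase, rose by log2 1.66, but its level depended on the library far more than on the class, at 286, 20.4, 171 and 3.41 CPM against 85.8, 3.67, 60.0 and 2.86 CPM.

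Some genes of iron and heme handling rose. Fth1, the ferritin heavy chain that stores iron, stood at 21906, 23081, 17980 and 21995 CPM against 5308, 7105, 3616 and 4365 CPM (log2 2.04 ± 0.09 SE, edgeR adjusted p = 2.88e-14). The stress-high sums lay well above all others. Ftl1, the light chain, rose by log2 1.64, and Blvrb, a biliverdin reductase, by 2.05. Slc48a1, a heme transporter, rose by 1.5, and Slc40a1, the iron exporter ferroportin, by 3.70 at only 3.41 to 5.57 CPM. Of 14 genes tested, these 5 rose and none fell, with a median of 0.12. Fth1 and Ftl1 have many processed copies in the genome, and how their reads were assigned could shift both levels.

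The genes of the regulators did not pass. Nfe2l2, which encodes NRF2, differed by log2 0.34 (edgeR adjusted p = 0.0867), Keap1 by 0.19 (adjusted p = 0.636) and Bach1, a repressor of Hmox1, by 0.52 (adjusted p = 0.178). Hsf1 differed by -0.36 (edgeR adjusted p = 0.513) and Hsf2 by 1.03 (adjusted p = 0.14), both at low levels. Ier5, a co-regulator of HSF1, rose by 0.53 (edgeR adjusted p = 0.00937). The metallothioneins, which bind zinc and are induced by metals and oxidants, went the other way, Mt1 by log2 -0.64 and Mt2 by -0.72. Together the 5 listed metallothionein and zinc genes stood at 8522, 10557, 6576 and 5914 CPM in the stress-high cells. In other basal cells they stood at 8484, 13952, 10834 and 15278 CPM, so their sum did not fall in the first corn oil-labelled library.

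Heat shock chaperones rose beyond the rule genes. Of 27 tested 22 rose and 1 fell, with a median log2 of 0.99. Hspa1b stood at 492, 370, 606 and 543 CPM against 192, 114, 208 and 85.0 CPM (log2 1.75 ± 0.15 SE, edgeR adjusted p = 5.68e-09). The groups did not overlap. Hspa4l, a relative of Hsph1, rose by 1.83, the HSP70 partners Dnaja1 and Dnaja4 by 1.65 and 1.73, and Cacybp, which binds HSP90 co-chaperones, by 1.53. Hspe1 and Hspd1, which form the mitochondrial chaperonin and share the promoter window described above, rose by 1.5 and 1.39. Hspb1, the most abundant small heat shock protein here, rose by 1.31 to 12495, 17241, 16145 and 25160 CPM, and Hsp90aa1 by 1.41. Hspa9, the mitochondrial HSP70, fell by 0.63 on the log2 scale. Hspa1a and Hspa1b are nearly identical, and the split of reads between them is uncertain.

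Proteasome subunits rose as well. Of 31 proteasome subunits tested 24 rose and none fell, with a median log2 of 0.70. Psmb3 (1.14), Psmd6 (1.08) and Psma2 (1.02) had the largest values, and Psma2 stood at 394, 346, 330 and 379 CPM against 189, 183, 177 and 138 CPM. Of 13 autophagy and ubiquitin genes 5 rose and none fell (median 0.39), among them Sqstm1, the autophagy receptor p62, by 0.79. Of the 11 tested partners of small heat shock proteins, Hspb1, Bag3 (1.08) and Sqstm1 rose, while Hspb6 (-1.49) and Tns1 (-2.72) fell, with a median of -0.26.

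Chaperones of the endoplasmic reticulum went down in the same cells. Of 17 tested 16 fell and none rose, with a median log2 of -0.89. Hspa5, the chaperone BiP, stood at 3657, 1243, 1860 and 683 CPM in the stress-high cells against 4078, 3376, 3470 and 2270 CPM (log2 -1.10 ± 0.16 SE, edgeR adjusted p = 1.27e-05). It was lower in 4 of 4 libraries, by little in the first and by more in the other 3. Sdf2l1 fell by 1.43 on the log2 scale, Manf by 1.41 and Hsp90b1 by 0.93. Genes of the ATF4 response to amino acid and endoplasmic reticulum stress fell too, 15 of 24 with 2 higher, among them Ddit3 (-1.23), Atf4 (-0.90) and Mthfd2 (-1.17). The 2 that rose were Slc7a11, also an NRF2 target, and Gdf15 (0.60).

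Hypoxia and glycolysis genes fell in 15 of 19 cases and rose in none, with a median log2 of -0.72. Bnip3, a mitophagy receptor, stood at 247, 152, 150 and 85.4 CPM against 460, 404, 447 and 420 CPM (log2 -1.52 ± 0.16 SE, edgeR adjusted p = 1.37e-07). Ndrg1 differed by -1.47, Vegfa by -1.15 and Slc2a1, the glucose transporter GLUT1, by -1.02. These counts depended on how far the class reached. With the top 10% of basal cells taken in place of 5%, 1 of 17 chaperones of the endoplasmic reticulum and 6 of 19 hypoxia genes were lower. With basal cells limited to those with basal above 10 times luminal keratin UMIs, 3 and 5 were lower. Against the nearest cells in total UMIs, 16 and 14 were.

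**Figure D3:**
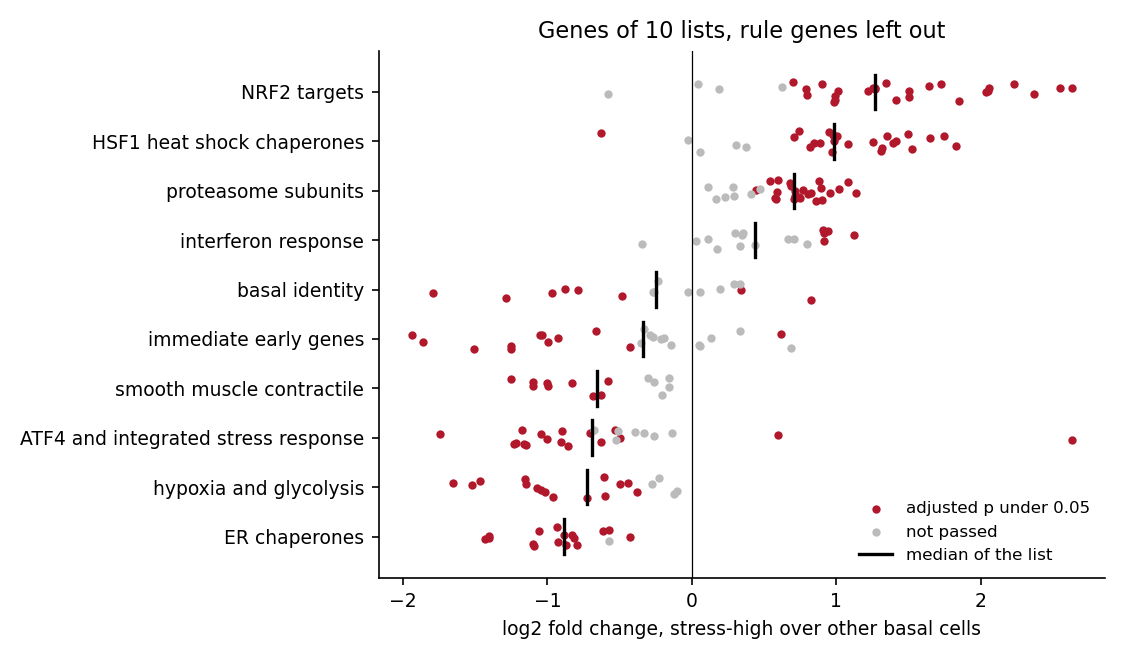
Log2 fold change of stress-high over other basal cells for each tested gene of 10 lists, with red points for genes at an edgeR adjusted p under 0.05, grey points for the others and a black bar at the median. The medians of the NRF2 targets (1.27) and heat shock chaperones (0.99) lie right of 0, and those of the hypoxia genes (-0.72) and the endoplasmic reticulum chaperones (-0.89) left of it.

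Ddit4l, a paralogue of the mTORC1 inhibitor Ddit4, had the largest rise among genes outside the rule that passed, averaged at least 20 CPM over the 8 sums and went 1 way in 4 libraries. It stood at 92.7, 110, 20.9 and 126 CPM against 11.7, 11.8, 6.49 and 6.99 CPM (log2 3.16 ± 0.25 SE, edgeR adjusted p = 1.15e-09). Ddit4 itself fell (-0.90). Cxcl1, a neutrophil attractant, stood at 170, 661, 343 and 464 CPM against 50.9, 53, 174 and 96.1 CPM (log2 2.16 ± 0.24 SE, edgeR adjusted p = 3.4e-07), and Csf1, the macrophage growth factor, rose by 1.94. Csf3 (-1.92), Ptgs2 (-1.94), Ccl7 (-1.63) and Cxcl14 (-0.46) fell, so 2 rose and 4 fell of the 11 cytokines and chemokines tested.

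Of 24 immediate early genes 11 fell and 1 rose. Socs3, an inhibitor of cytokine signals, fell by 1.94 on the log2 scale, Btg2 by 1.51 and Fos by 1.25, whereas Ier2 rose by 0.62. Of 17 interferon response genes 5 rose, Rtp4 (1.12), Isg15 (0.94), Ifi35 (0.92), Bst2 (0.91) and Stat2 (0.91). Ifit1 (0.03) and Ifit3 (0.18) did not pass. Of 16 p53 targets Plk2, Trp53 and Gdf15 rose and Btg2 fell.

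Of 16 basal identity genes 2 rose and 6 fell. These counts include Krt5 (0.34), Krt14 (-1.28) and Krt17 (-0.79), which the basal rule used to admit every cell and whose levels are a description. Outside the rule the integrin Itgb4 (0.83) rose, and Vim (-1.79), Snai2 (-0.97), Trp63 (-0.88) and Igfbp2 (-0.48) fell. Krt14 stood at 2253, 2612, 2153 and 2032 CPM against 3975, 5816, 5195 and 6475 CPM, with no overlap. Contractile genes fell in 9 of 14 cases and rose in none, with Cnn1 at -1.25, Tagln at -1.0 and Acta2, which the basal rule itself used, at -0.63. Of 19 genes of wounded or activated epithelium 11 were tested. Krt16 fell by 2.57 on the log2 scale, with F3, Cd109 and Tnc also lower, and Tnfrsf12a rose by 0.83.

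The luminal keratins Krt8, Krt18 and Krt19, which the basal rule limits in every cell, made up 0.0901% of UMIs against 0.146% in other basal cells, as a description. Of 15 luminal identity genes tested, these keratins included, 4 rose and 4 fell. Epcam (0.57), Cldn3 (0.84), Cldn7 (0.96) and Lcn2 (0.46) rose. The cells with the highest doublet scores made up 4.76%, 0.676%, 4.35% and 1.06% of the class in the 4 libraries, against 2.44%, 2.58%, 3.05% and 3.69% of other basal cells. They were more frequent in the class in the first library of each label and less frequent in the second. In classes of 63, 148, 46 and 94 cells these shares rest on very few cells. Leukocyte markers summed to 14.9 to 38.6 CPM per library against 29.3 to 47.0 CPM over 16 genes, with Ptprc at 0 in both classes. Most of the sum was Cd68, at 36.1, 11.1, 25.1 and 30.7 CPM against 30.9, 37.2, 25.8 and 46.1 CPM. Endothelial markers summed to 4.18 to 106 CPM against 16.7 to 105 CPM over 12 genes. Cdh5 was at 0 in the stress-high cells, but Pecam1 stood at 20.6, 35.3, 4.18 and 44.4 CPM against 11.2, 39.5, 7.20 and 48.6 CPM. Fabp4 stood at 10.3, 18.6, 0 and 51.2 CPM against 1.56, 23.2, 11.6 and 36.9 CPM. Fibroblast markers summed to 16.7 to 58.0 CPM against 23.4 to 109 CPM, and pericyte markers to 16.7 to 113 CPM against 99.9 to 165 CPM. Most of the pericyte sum in other basal cells was 1 gene, Ndufa4l2. It stood at 90.1, 22.3, 0 and 13.7 CPM in stress-high cells against 138, 128, 58.8 and 72.4 CPM.

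Signs of RNA quality moved slightly with the class. The median mitochondrial share of UMIs was 2.24%, 2.5%, 2.11% and 3.04% in stress-high cells against 1.86%, 2.10%, 1.42% and 2.16% in other basal cells, higher in each library. Of 13 mitochondrially encoded genes 6 rose and 2 fell, mt-Nd3 by 0.87 and mt-Nd4l by -1.31. No stress-high cell was over 10% mitochondrial UMIs. Whether this share bears on the gene groups above was not tested. Only 5 of 20 cell cycle genes passed the filter, and Tubb5 alone of them changed (-0.37).

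The class overlapped other stress states of the same basal cells unevenly. Taking in the same way the top 5% of basal cells by immediate early genes, 2 stress-high cells (0.570%) were among them, against 5.23% of other basal cells. For the wounding genes it was 6 cells (1.71% against 5.17%), for chaperones of the endoplasmic reticulum 14 (3.99% against 5.05%) and for interferon response genes 20 (5.70% against 4.96%). The libraries differed in this. The immediate early share was lower in the class in 4 of 4 libraries, and the wounding share in all but the first 4OHT-labelled library (6.52% against 6.11%). The share for chaperones of the endoplasmic reticulum was higher in the class in the first library of each label (11.1% against 5.79% and 6.52% against 3.64%). It was lower in the second (2.70% against 7.45% and 0% against 3.41%). In the class these shares were 7 and 3 cells in the first libraries and 4 and 0 in the second. The interferon share was lower in the class only in the second corn oil-labelled library (8.11% against 10.6%). These shares follow from the same counts and carry no test.

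Among the genes with the largest falls, Edn2 (endothelin 2, log2 -3.62) rested on 0, 0, 2 and 6 UMIs in the stress-high cells and Tppp3 (-3.35) on 9 UMIs in all. H1f0, the linker histone of resting cells, stood at 67.0, 87.3, 20.9 and 88.8 CPM against 218, 296, 236 and 739 CPM (log2 -2.38 ± 0.20 SE, edgeR adjusted p = 3.24e-09). Osr1, a transcription factor, differed by -2.19, Cavin2, of the caveolae, by -2.30, Car13, a carbonic anhydrase, by -2.20, Ankrd9 by -2.10 and the adenylate kinase Ak1 by -2.02. Derl3 (-2.06), a component of endoplasmic reticulum disposal, turned to 0.26 with the top 10% of cells. Kpna2, a nuclear importin, was among the largest rises at 1.87.

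The same limit of 79.9 UMIs per 10000 was applied to luminal cells, which the rule did not use. It was passed by 3.61%, 6.63%, 4.48% and 2.39% of the luminal cells of the 4 libraries. Of 9036 genes tested outside the rule between these and other luminal cells, 408 (4.52%) were higher and 783 (8.67%) lower. Of the 20 genes named as largest rises in basal cells 18 rose in luminal cells too, among them Slc7a11 (3.40), Fth1 (2.21) and Txnrd1 (1.70). Of the 10 named falls 8 were tested in luminal cells and 2 fell there. Ddit4l did not pass (log2 0.32, edgeR adjusted p = 0.829), and Cxcl1 fell (-0.53, adjusted p = 0.0443). Hspb8, a rule gene, differed by log2 -0.03 ± 0.53 SE in these luminal cells. That value rested on 0, 2, 4 and 5 UMIs, too few to give its direction.

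In luminal cells 24 of 29 NRF2 targets (median 1.16), 21 of 27 heat shock chaperones (median 0.81) and 26 of 31 proteasome subunits (median 0.78) rose, and none of the 3 groups held a gene that fell. Chaperones of the endoplasmic reticulum rose in 10 of 17 cases there (median 0.51) and hypoxia genes in 9 of 19 (median 0.44), with 0 lower in both. In basal cells both groups fell at the 5% limit. Far fewer of their genes were lower there with the top 10% of basal cells, at 1 chaperone and 6 hypoxia genes. With basal above 10 times luminal keratin UMIs it was 3 and 5. The contrast with luminal cells was not refitted with either setting. The 10 chaperones of the endoplasmic reticulum that passed in both cell types all went in opposite directions, as did the 7 hypoxia genes that passed in both, while 23 NRF2 targets rose in both.

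That difference was tested directly, as an interaction of stress class and cell type, a test chosen after these values were seen. Of 10140 genes outside the rule 331 (3.26%) differed in effect, 137 (1.35%) with the higher effect in basal cells and 194 (1.91%) with the lower. Of 17 chaperones of the endoplasmic reticulum 16 had the lower effect in basal cells and none the higher (median difference -1.54). Hspa5 differed by -1.54 ± 0.21 SE (edgeR adjusted p = 8.06e-07), from -1.10 in basal to 0.42 in luminal cells, and lower in basal cells in 4 of 4 libraries. Sdf2l1 differed by -2.27 (from -1.43 to 0.80) and Manf by -1.81 (from -1.41 to 0.37).

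Of 19 hypoxia genes 14 had the lower effect in basal cells (median -1.09), with Ndrg1 at -2.12 (from -1.47 to 0.62). Of 30 NRF2 targets 2 differed, Srxn1 (-2.10) and Blvrb (0.87), with a median of 0.07. Of 27 heat shock chaperones Hspd1 (1.00), Hspe1 (0.87) and St13 (0.69) had the higher effect in basal cells and Hspa9 (-1.09) the lower, with a median of 0.13. Of 31 proteasome subunits 1 differed. Cxcl1 (2.64 ± 0.32 SE, edgeR adjusted p = 5.17e-08) and Ddit4l (2.81 ± 0.58 SE, adjusted p = 0.00117) had the higher effect in basal cells. Luminal cells were taken here as 1 class, and the part of luminal subtypes in these differences was not tested. The genes that carried cells past the limit also differed between the cell types. Cryab stood at 207, 628, 337 and 380 CPM in luminal cells past the limit, against 1743, 708, 4030 and 3302 CPM in stress-high basal cells. Whether this make-up of the score bears on the differences was not tested.

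**Figure D4:**
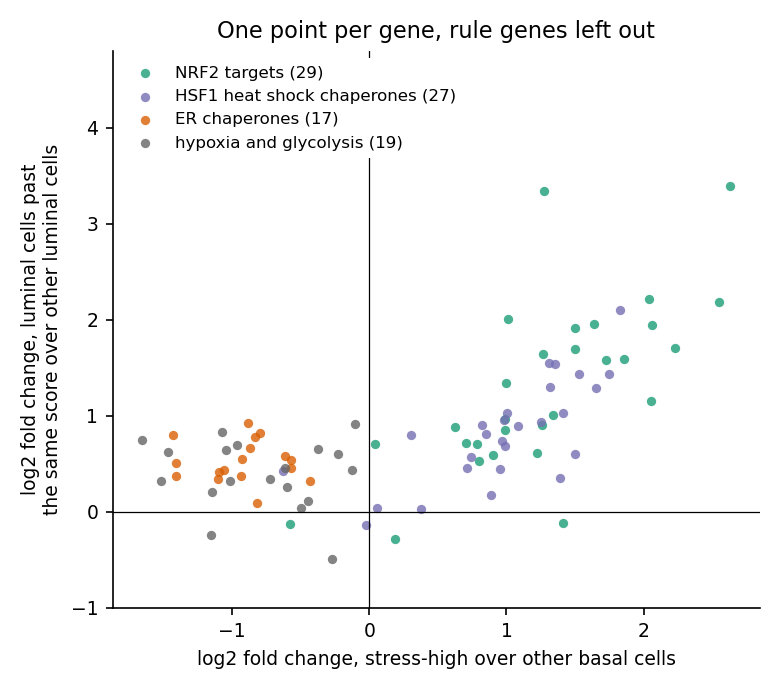
Log2 fold change of stress-high over other cells for each gene of 4 lists, in basal cells on the x axis and in luminal cells past the same score on the y axis. NRF2 targets and heat shock chaperones lie mostly at upper right, and endoplasmic reticulum chaperones and hypoxia genes at upper left, higher in luminal and lower in basal cells.

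The share of basal cells in the class was 4.21% (63 of 1496 cells) and 7.66% (148 of 1933) in the corn oil-labelled libraries and 3.24% (46 of 1421) and 4.32% (94 of 2178) in those labelled 4OHT. The means were 5.93% ± 2.44 (SD, n = 2) and 3.78% ± 0.763 (SD, n = 2), and the ranges overlapped. An exact two-sided permutation test over the 4 libraries gave p = 0.667. No split of 2 against 2 libraries can go below 0.333. The difference of -2.16 percentage points was -0.43 without the second corn oil-labelled library, so it rests on that library. With the top 10% of basal cells, the shares were 12% and 14.3% against 6.69% and 6.93%, which do not overlap (exact permutation p = 0.333, again the smallest possible). The ranges also did not overlap with 2000 UMIs drawn per cell, without Acta2 in the basal rule, with basal above 10 times luminal UMIs or with equal gene weights. They did overlap with the top 2.5%, a minimum of 2000 UMIs, at most 10% mitochondrial UMIs or the highest doublet scores removed.

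The Hmox1 and Gclm set held 4.95% and 7.81% of basal cells against 2.74% and 3.99%, and the heat set 5.95% and 4.6% against 5.84% and 4.13%. Exact permutation tests gave p = 0.333 for the former and p = 0.667 for the latter. Over all basal cells Hmox1 stood at 1343 and 1580 CPM in the corn oil-labelled and at 834 and 775 CPM in the 4OHT-labelled libraries (log2 -0.82 ± 0.23 SE, edgeR adjusted p = 0.999), and Gclm at 283 and 343 against 173 and 168 CPM (log2 -0.84 ± 0.23 SE, adjusted p = 0.999). Neither difference passed the test. Cryab stood at 209 and 153 against 281 and 256 CPM.

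**Figure D5:**
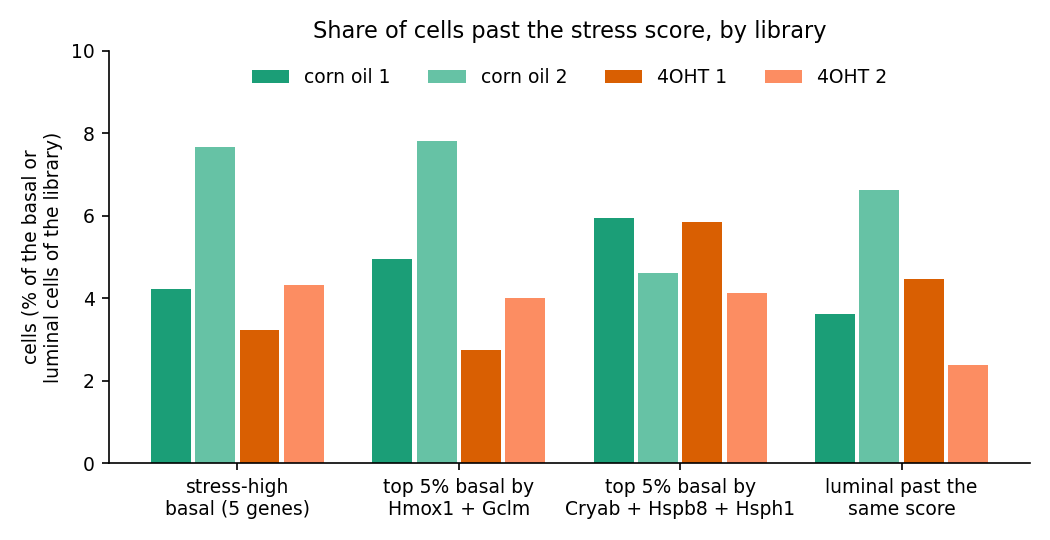
Percent of the basal cells of each library that were stress-high, in the Hmox1 and Gclm set or in the Cryab, Hspb8 and Hsph1 set, and percent of luminal cells past the same score, with 1 bar per library. The second corn oil-labelled library is highest in the first 2 groups and among luminal cells (7.66%, 7.81% and 6.63%), and not in the heat set.

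Within the stress-high cells 0 of 3539 genes (0%) differed between the 4OHT-labelled and corn oil-labelled libraries at an edgeR adjusted p under 0.05, where 164 had an unadjusted p under 0.05 and DESeq2 also called 0. The smallest p belonged to Ifit1, an interferon response gene, at 209 and 362 CPM under the corn oil label and 66.9 and 75.1 CPM under the 4OHT label (log2 -1.90, edgeR adjusted p = 0.753), to Gm21190 (-2.35) and to the growth factor binding protein Igfbp5 (-1.60). Cryab, at the levels given above, was higher by log2 1.70 in the 4OHT-labelled cells, and by 1.24 to 2.45 with 1 library left out. It helped to choose the cells, and a few cells held most of its UMIs in each library, so this is a description. Hmox1 (-0.06), Gclm (-0.05), Hspb8 (0.09) and Tfap2c (0.06) had values near 0 that changed sign when 1 library was left out. The 0 calls did not hold in fits that left out 1 library. Such fits leave a lone library in 1 group, and their counts are given at the end. A cell enters the class with either gene, so the levels of Hmox1 and Cryab within it are not independent of each other.

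In all basal cells 0 of 10788 genes (0%) passed, with 465 at an unadjusted p under 0.05 and 38 called by DESeq2. Here too, fits that left out 1 library did make calls, as given at the end. The smallest p belonged to Ctla2a, a cysteine protease inhibitor, at 0.865 and 0.612 CPM under the corn oil label and 14.3 and 12.9 CPM under the 4OHT label (edgeR adjusted p = 0.209). The effect of the stress class itself differed between the treatment labels for 26 of 10234 genes (0.254%), 15 (0.147%) with the higher effect under the 4OHT label and 11 (0.107%) with the lower. Spp1, osteopontin, was lower in stress-high than in other basal cells of the corn oil-labelled libraries, at 36.1 and 33.4 against 91.4 and 134 CPM. It was higher in the 4OHT-labelled ones, at 46.0 and 215 against 24.7 and 56.4 CPM (difference of log2 fold changes 3.32 ± 0.37 SE, edgeR adjusted p = 1.29e-15). Its stress-high values rested on 14 and 18 UMIs under the corn oil label and 11 and 63 under the 4OHT label. Without the first corn oil-labelled library 10 genes passed, and without the second 4OHT-labelled library 16.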

How the data were processed

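Per the submitters' processing notes the reads went through bcl2fastq and Cell Ranger 3.0.1 with the mm10 genome, and per the labels the mapping used GRCm38.91. The authors deposited filtered matrices of UMI counts per gene and cell, whole numbers over 31053 genes with no normalization. Replicate numbers only name the mice, and no source ties a number to a litter or day. With the library as a block, p-values measure how far the difference between classes varies from mouse to mouse. Those of the treatment comparisons, which had no block, measure the spread between the mice themselves.

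Of the cells, 4398 were neither basal nor luminal, among them 391 left out for having under 1000 UMIs. Doublets were kept, with removal of the highest Scrublet scores (0.8% per 1000 cells) as an alternative. Sums of UMI counts, 1 per class in each library, were tested with edgeR 4.0.16 (TMM, filterByExpr, quasi-likelihood F-test, library as a block within libraries, Benjamini-Hochberg over all genes tested, threshold 0.05) in R 4.3.3. DESeq2 1.42.0 was an alternative. Python 3.11.15 with scipy 1.17.1 gave the exact permutation tests. CPM are counts per 1000000 UMIs of the summed cells, SE are those of the log2 fold change, and differences within a library use a prior of 1 CPM. Named genes are the 20 largest rises and 10 largest falls among genes that passed, of mean level 20 CPM or more and 1 direction in 4 libraries, up to 4 genes per list by p, and the regulators of the 2 pathways; further names were chosen after their values were seen. The members, the 31 gene lists and the tests were chosen with earlier results of these data known. Trim16l and Aldoa, on 2 lists, were not found by name. Symbols held by more than 1 gene carried a gene identifier in the search, so a shared symbol would not have been found.

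On simulated counts with 4-fold changes (a log2 change of 2), the stress class fit recovered 83.0% of 194 changed genes among 8962 with 10 false calls, and the treatment fit in stress-high cells 80.2% of 182 among 3199 with 12. The fit of the class effect by treatment recovered 40.0% of 195 among 9920 with 2 false calls, and that by cell type 50.3% of 195 among 9907 with 7. The counts were drawn independently for each sum, from the spread that the fits themselves had estimated. Smaller changes and links between libraries were not simulated, so these shares do not say how many real differences were missed. Alternatives, whose effect is given at the end, were the share of cells taken, the score, depth, the basal rule, doublets, the comparison cells, filters, scaling, the tool, the block and each library left out.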

Additional observations from a re-analysis of the deposited data

Results flagged for a closer look

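The effect of the stress class differed between the treatment labels, by a test of the difference itself, for 26 genes (edgeR adjusted p under 0.05). Values are the effect in the 4OHT-labelled minus that in the corn oil-labelled libraries, in log2. Spp1, an extracellular phosphoprotein, differed by 3.32, and passed in each alternative run. Gm10827 (4.90) rested on 0, 1, 4 and 12 UMIs in the stress-high cells. A330069E16Rik differed by 2.46, the interferon-induced gene Ifi27l2a by 2.09 and the fibrinogen gene Fgg by 2.0. Ndrg2 differed by -2.29, the adhesion molecule Vcam1 by -1.77, the fatty acid binder Fabp5 by -1.56, H1f0 by -1.46 and Sdf2l1, the chaperone of the endoplasmic reticulum, by -1.18. Each of these other than Spp1 lost its call in at least 1 of the fits that left out a library, H1f0 in all 4.

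The effect also differed between basal and luminal cells, for 331 genes. Values are the effect in basal minus that in luminal cells, in log2, and all 10 genes had the same sign in 4 of 4 libraries. Man1a, a Golgi mannosidase, differed by 3.87, Tmem158 by 3.77 and Ptn, the growth factor pleiotrophin, by 3.46. Ptn stood at 15.7, 11.7, 16.8 and 280 CPM in luminal cells past the limit against 907, 889, 901 and 1873 CPM in other luminal cells, while in basal cells it differed by -1.27. Fgb (5.33) and Cdo1 (4.11) rested on 4 stress-high UMIs each over all libraries. Ptgs2, the prostaglandin synthase COX-2, differed by -3.31, from -1.94 in basal to 1.34 in luminal cells. The hypoxia-responsive genes Ndufa4l2, Hilpda and Ankrd37 differed by -3.21, -2.45 and -2.44. Mpzl2, an adhesion protein, differed by -2.87 on 4 stress-high UMIs. Fgb, Cdo1 and Mpzl2 lost their calls in 1, 3 and 1 of the 4 fits that left out a library.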

How the results depend on the processing

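The 30 named genes of stress-high against other basal cells kept their direction and call in 621 of 625 alternatives. Derl3 turned to 0.26 with the top 10% of cells. The left-out genes and the genes of the other sub-score kept theirs in 30 of 30 and 30 of 30.

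Genes higher in stress-high cells numbered 352 with the top 2.5% of cells, 199 with basal above 10 times luminal UMIs, 233 against the nearest cells in total UMIs and 179 with no library block. Genes lower numbered 480, 361 and 205 under the last 3 and 542 with DESeq2. Leaving out 1 library gave 310 to 461 higher and 544 to 717 lower, both lowest without the second corn oil-labelled library, where 303 of the 580 and 517 of the 820 genes were still called. With no library block the numbers lower were 6 for chaperones of the endoplasmic reticulum, 9 for hypoxia, 8 for ATF4, 3 for immediate early and 4 for contractile genes. The ATF4 number was 4 with the top 10% and 4 with basal above 10 times luminal UMIs, which gave 13 higher proteasome subunits, and 7 immediate early genes were lower against the nearest cells. The luminal counts went from 282 to 375 higher and 597 to 701 lower, and the basal to luminal difference from 242 to 358 genes, when 1 library was left out.

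By treatment, the 0 calls in stress-high cells became 16 with no filter, 72 with the replicate number as a block and 13 to 28 without 1 library. In all basal cells they became 93, 165 and 17 to 127, and 38 with DESeq2. The block is not established as a pairing. Deviations of same-numbered libraries correlated at 0.39 in stress-high and 0.59 in all basal cells, but with 2 pairs and no label behind them. Under the replicate block Hmox1 (-0.81) and Gclm (-0.83) passed in all basal cells. The genes by which the class effect differed numbered 10 to 24 without 1 library. The difference in share ranged from -3.88 to -0.43 percentage points without 1 library and was -6.37 with the top 10% of cells.

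Values near 0 changed sign when 1 library was left out. In stress-high cells they ranged from -0.19 to 0.088 for Hmox1 (0.063 and 0.088 the reversed ones), from -0.25 to 0.19 for Gclm (reversed at 0.15 and 0.19), from -0.13 to 0.40 for Hspb8 (reversed at -0.13 and -0.11) and from -0.24 to 0.48 for Tfap2c (reversed at -0.24 and -0.11). In all basal cells they ranged from -0.16 to 0.23 for Hspb8 (reversed at -0.16 and -0.10), from -0.63 to 0.37 for Hsph1 (reversed at 0.33 and 0.37) and from -0.28 to 0.10 for Tfap2c (reversed at 0.10 and 0.10). With no filter Hspb8 came to -0.012 in all basal cells and Tfap2c to -0.0018 in stress-high cells. Except where an alternative takes fewer cells or samples, the cause was not tested. Leaving 1 library out leaves 1 group with a lone library, assumed to vary like the others. The sums of 46 to 148 cells limit genes under about 20 CPM.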
